A study of Brachypodium distachyon with 6 samples.

Results

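*BdPHB-like*, *BdAGO10*, *BdAPL* and *BdCRC* are grouped here as genes of leaf polarity and of vascular identity. They are 4 of the 36647 genes in a bulk RNA-seq count table of the developing *Brachypodium distachyon* leaf, and were selected by their Bd21-3 gene IDs, which the study's list of gene names gives. The tissue was the developmental zone at the base of young leaves of 3 wk old, soil-grown wild-type plants of the Bd21-3 ecotype, without any transgene or mutation in either group. Protoplasts, which are cells freed from their walls with Cellulase Onozuka RS and Macerozyme R10, were prepared from 10 leaf zones per sample, and the untreated control used 5 leaf zones per sample. Each group held 3 libraries, described as biological replicates, with 17482438 to 24621927 counts on genes.

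The labels of the libraries contradict each other. Title and library name give the grouping used here, whereas the treatment entry names the opposite group for 6 of 6 libraries. The groups are therefore called libraries labelled protoplasted and libraries labelled non-protoplasted, and every direction below would be exchanged if the treatment entry were the correct one. *BdMPK3-like*, whose counterpart in *A. thaliana* encodes a MAP kinase and is induced by wounding, stood at a mean of 1.54 ± 0.206 CPM under the label protoplasted and of 1054 ± 158 CPM under the label non-protoplasted (SD, n = 3 each). *BdSLP1-like1*, a *SILIPLANT1*-like gene that the study lists as affected by protoplasting, was named here after its values were seen. The study's figure legend states no direction for this gene. Between the labels *BdSLP1-like1* ran opposite to *BdMPK3-like*, with means of 95.9 ± 6.59 and 0.486 ± 0.182 CPM (SD, n = 3 each). As no direction is stated, the values of *BdSLP1-like1* do not show which label is correct. As marker candidates the study considered only genes not upregulated in protoplasted tissue, with a fold change above 3 as its limit. Of its markers, *BdSDD1*, *BdGELP1* and *BdTMM* had log2 fold changes of 5.00, 3.98 and 3.79 under the labels used here. Others, such as *BdPME53-like* with 2.89 and *DUF567* with 1.31, were higher but below 3 on this scale. Whether each passed that filter was not checked. None of these genes was used to assign a library to a group, and which label is correct was not tested. Library 1 labelled protoplasted stood apart from libraries 2 and 3 of its group. Over the genes tested, its counts differed from theirs by a chi-square of 44.1 and 37.1 per degree of freedom, against 11.4 between the latter. In the other group, library 1 likewise differed more from libraries 2 and 3, by 17.3 and 10.6 against 6.71 between the latter. It also held the fewest counts of all libraries. Values without library 1 labelled protoplasted are given where it changes a direction.

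Leaves become flattened because an upper (adaxial) and a lower (abaxial) side are specified in the primordium, and the same regulators pattern xylem and phloem within the veins. In *A. thaliana*, *PHABULOSA* (*PHB*) encodes a class III HD-ZIP transcription factor that promotes adaxial identity, and its transcript is cleaved under the guidance of a conserved microRNA. The Argonaute protein AGO10 (PINHEAD or ZWILLE) binds that microRNA and thereby protects class III HD-ZIP transcripts in *A. thaliana*. *CRABS CLAW* (*CRC*) encodes a YABBY transcription factor, and its rice counterpart *DROOPING LEAF* is required for carpel identity and for the leaf midrib. The study used *BdCRC* to help mark clusters of leaf primordia in its single-cell data. *ALTERED PHLOEM DEVELOPMENT* (*APL*) encodes a MYB-type transcription factor that is required for phloem identity in *A. thaliana*.

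*BdCRC*, *BdAPL* and *BdAGO10* were higher in the libraries labelled protoplasted, and *BdPHB-like* did not pass the test. The change was 7.71-fold for *BdCRC*, 3.14-fold for *BdAPL* and 1.52-fold for *BdAGO10*. All 4 genes had enough counts to be tested. Values within a gene are in CPM, which scales counts to a common library size after TMM normalization. The test was edgeR's quasi-likelihood test, with p adjusted by Benjamini-Hochberg over the 23677 genes tested. Of all genes tested, 77.0% were called in either direction with 38.7% higher and 38.3% lower under the label protoplasted, so that a call by itself does not set these genes apart. The groups did not overlap in 80.5% of all genes tested, with 40.4% higher and 40.1% lower under the label protoplasted, and in the 3 genes called here. For a single gene, the smallest two-sided p of an exact permutation test with 3 libraries a group is 0.1. In bulk tissue, fewer cells of a type and less RNA per cell cannot be told apart.

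**Figure D1:**
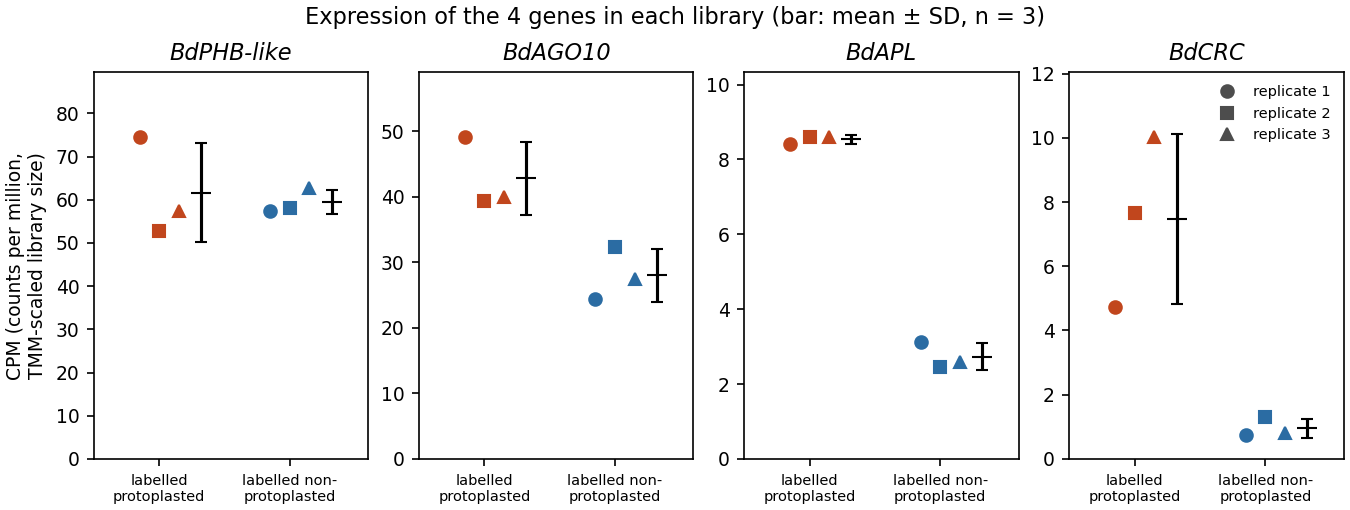
CPM of each gene (vertical axis, starting at 0) in each library, with the groups on the horizontal axis. Circles, squares and triangles are replicates 1, 2 and 3, and the bars give the mean ± SD of 3 libraries. *BdAPL* and *BdCRC* show a clear gap between the groups, *BdAGO10* a smaller gap, and for *BdPHB-like* the groups overlap.

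*BdCRC* (BdiBd21-3.1G0942300), the YABBY gene, had the largest fold change of the 4 genes. It had 124, 216 and 271 counts in libraries 1, 2 and 3 labelled protoplasted, which are 4.74, 7.65 and 10.0 CPM. In the libraries labelled non-protoplasted there were 11, 28 and 17 counts, or 0.750, 1.30 and 0.804 CPM. The groups did not overlap, although every value labelled non-protoplasted rested on few counts. The means were 7.47 ± 2.65 and 0.950 ± 0.301 CPM (SD, n = 3 each), a log2 fold change of 2.95 (standard error 0.35, 95% interval 2.17 to 3.73, adjusted p = 3.71e-05 from edgeR). With log2(TPM + 1) the value was 1.93, a scale on which changes of low genes come out too small.

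*BdCRC* also varied most between replicates, with a coefficient of variation of 35.5% in the libraries labelled protoplasted. The exact 95% Poisson intervals of these libraries were 3.94 to 5.65, 6.66 to 8.74 and 8.87 to 11.3 CPM. They did not overlap, so that the spread exceeded the counting error, which is all that these intervals cover. Library 1, which stood apart from its group, held the lowest *BdCRC* value. In the libraries labelled non-protoplasted the intervals were 0.374 to 1.34, 0.861 to 1.87 and 0.468 to 1.29 CPM, and a difference between these libraries was not detectable at this depth.

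*BdAPL* (BdiBd21-3.3G0071200), the phloem identity gene, was the most even of the 4 genes in the libraries labelled protoplasted. It had 220, 243 and 232 counts there, which are 8.40, 8.61 and 8.59 CPM, with a coefficient of variation of 1.34%. In the libraries labelled non-protoplasted, 46, 53 and 55 counts gave 3.14, 2.45 and 2.60 CPM. The lowest value labelled protoplasted thus lay far above the highest of the other group. The means were 8.53 ± 0.114 and 2.73 ± 0.360 CPM (SD, n = 3 each), a log2 fold change of 1.65 (standard error 0.18, 95% interval 1.25 to 2.05, adjusted p = 2.03e-05 from edgeR).

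*BdAGO10* (BdiBd21-3.1G0499900), the Argonaute gene, had 1287, 1109 and 1078 counts in the libraries labelled protoplasted, which are 49.2, 39.3 and 39.9 CPM. The other group had 357, 699 and 579 counts, or 24.3, 32.3 and 27.4 CPM. The groups did not overlap, and library 1 labelled protoplasted was the highest. The means were 42.8 ± 5.52 and 28.0 ± 4.04 CPM (SD, n = 3 each), a log2 fold change of 0.61 (standard error 0.15, 95% interval 0.28 to 0.94, adjusted p = 0.00369 from edgeR). With library size only in place of TMM the log2 fold change of *BdAGO10* was 0.99, but the median over all genes tested moved as well, from 0.04 to 0.42. Relative to this median, *BdAGO10* stood at 0.57 after TMM and at 0.56 with library size only.

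*BdPHB-like* (BdiBd21-3.1G0185500), the class III HD-ZIP gene, was the most abundant of the 4 genes and the only one whose groups overlapped. It had 1953, 1490 and 1552 counts in the libraries labelled protoplasted, which are 74.6, 52.8 and 57.5 CPM. The libraries labelled non-protoplasted had 843, 1257 and 1327 counts, or 57.5, 58.2 and 62.8 CPM. Library 1 labelled protoplasted lay above every other library, and its counterparts lay at or below the level of the other group. The means were 61.6 ± 11.5 and 59.5 ± 2.87 CPM (SD, n = 3 each), and the log2 fold change was 0.05 (standard error 0.14, 95% interval -0.27 to 0.37, adjusted p = 0.756 from edgeR).

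The sign of this small difference in *BdPHB-like* was not stable. Without library 1 labelled protoplasted the log2 fold change was -0.10 (adjusted p = 0.372 from edgeR). It was -0.02 with RLE size factors and -0.02 with DESeq2. With library size only it was 0.43 and passed the test (adjusted p = 0.0208 from edgeR), where the median of all genes stood at 0.42. Relative to the median of all genes tested, *BdPHB-like* lay at 0.0085 after TMM and at 0.0090 with library size only. An interval reaching to 0.37 does not show that *BdPHB-like* was equal in both groups.

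Without library 1 labelled protoplasted, the other genes kept their calls. The log2 fold change was then 3.19 for *BdCRC*, 1.68 for *BdAPL* and 0.50 for *BdAGO10*, with adjusted p of 2.90e-06, 1.76e-05 and 0.00527 from edgeR. *BdAGO10* thus lay closer to the other group and *BdCRC* farther from it when this library was left out.

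**Figure D2:**
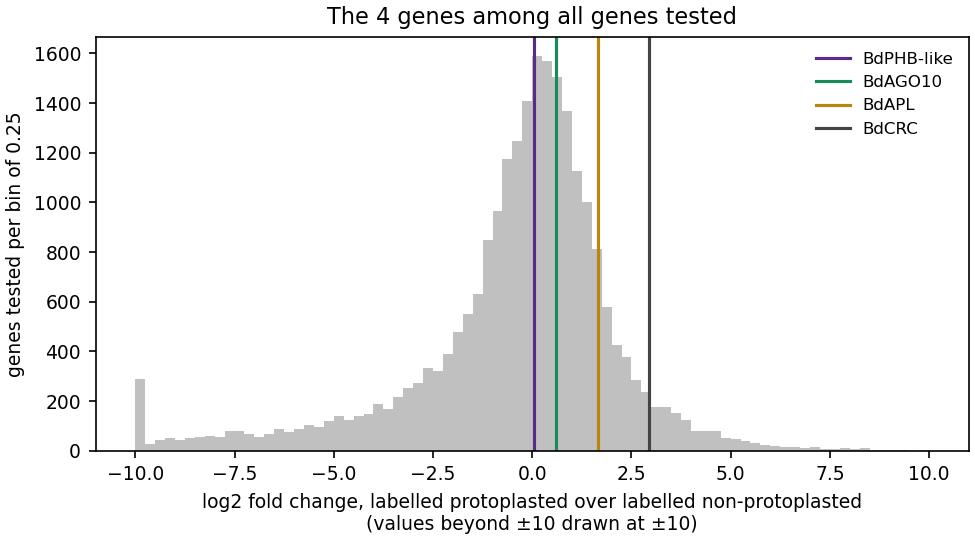
Number of genes (vertical axis) per bin of log2 fold change between the libraries labelled protoplasted and those labelled non-protoplasted (horizontal axis), for the 23677 genes tested. The vertical lines mark the 4 genes, of which *BdPHB-like* lies at the peak of the distribution and *BdCRC* in its right flank.

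Among all genes tested, 5.29% had a higher log2 fold change than *BdCRC*, 14.2% than *BdAPL*, 34.9% than *BdAGO10* and 49.8% than *BdPHB-like*. *BdPHB-like* therefore lay in the middle of the distribution. With the labels exchanged, these would be the shares of genes with a lower log2 fold change. The study sets a threshold of 3 to call genes upregulated and gives it both as a log2 fold change and as a fold change. On the log2 scale 5.09% of the genes tested lay above 3 and 12.6% below -3, and these shares would change places with the labels exchanged. *BdCRC* with 2.95 (2.89 with DESeq2) came closest to 3 on this scale among the 4 genes. *BdCRC* lay above 3 with library size only (3.32), without library 1 labelled protoplasted (3.19) and without library 2 labelled non-protoplasted (3.23), and at 3.00 on the log2(TPM + 0.1) scale. Its 95% interval of 2.17 to 3.73 held the threshold. On the linear scale, an alternative added after seeing the data, 15.1% of the genes tested lay above 3 with an adjusted p under 0.05 in edgeR, and so did 2 of the 4 genes, *BdCRC* with 7.71-fold and *BdAPL* with 3.14-fold. The interval of *BdAPL* held this threshold as well.

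Levels of different genes were compared as TPM, which divides the counts by gene length and scales each library to the same sum. The table gives lengths of 12081 bases for *BdAGO10*, 5918 for *BdPHB-like*, 4412 for *BdCRC* and 3096 for *BdAPL*, and whether introns are part of them is not given in the sources used here. If they are, the TPM of genes with long introns is understated. In each of the 6 libraries the order of the TPM was *BdPHB-like*, *BdAGO10*, *BdAPL* and *BdCRC*. Neighbours in this order did not overlap in either group.

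**Figure D3:**
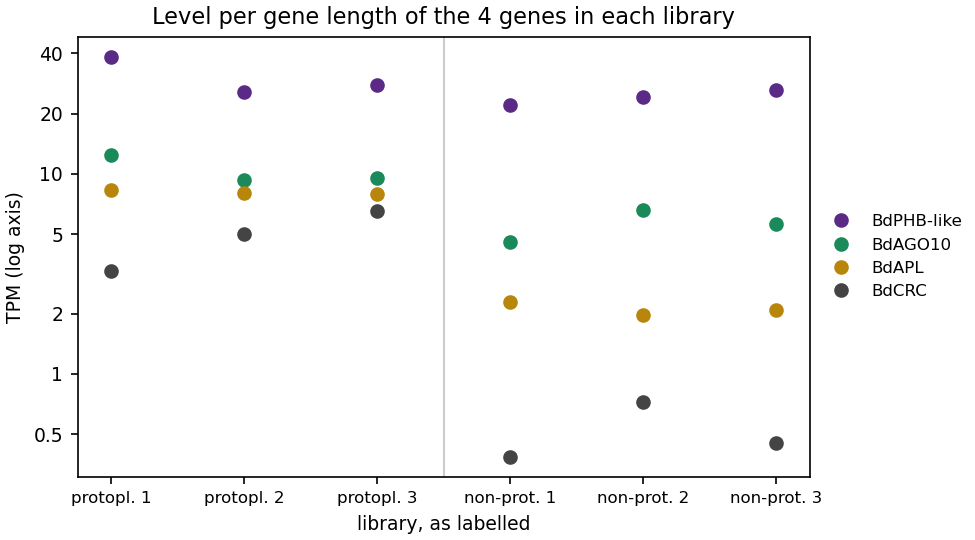
TPM of the 4 genes (vertical log axis) in each library (horizontal axis, in the order of the labels). The genes keep 1 order in all 6 libraries, and lie closer together in the libraries labelled protoplasted, at the left of the line.

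*BdPHB-like* stood at 25.7 to 38.5 TPM in the libraries labelled protoplasted and at 22.0 to 26.2 TPM in the others. *BdAGO10* stood at 9.36 to 12.4 TPM and at 4.57 to 6.63 TPM. For *BdAPL* the TPM ranged from 7.96 to 8.28 and from 1.96 to 2.30. *BdCRC* was the lowest throughout, with 3.28 to 6.53 TPM and 0.385 to 0.727 TPM. In the libraries labelled protoplasted, *BdAPL* at its highest was thus close to *BdAGO10* at its lowest, while in the others they lay well apart. On the scale of mean TPM, *BdCRC* moved from the level that 6.29% of the genes tested did not exceed in the libraries labelled non-protoplasted to 36.7% in those labelled protoplasted. *BdAPL* moved from 21.4% to 47.6%, *BdAGO10* from 40.5% to 54.1% and *BdPHB-like* from 74.4% to 79.6%.

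The summed TPM of the 4 genes was 48.1 to 62.5 in the libraries labelled protoplasted and 29.3 to 34.3 in the others. *BdPHB-like* made up 53.5% to 61.6% of the summed TPM in the libraries labelled protoplasted and 72.3% to 76.3% in the others. The share of *BdCRC* was 5.25% to 12.6% against 1.31% to 2.16%. *BdAGO10* took 18.3% to 19.9% against 15.6% to 19.7%, shares that overlapped between the groups. These shares hold within a library and do not depend on how libraries are scaled to each other.

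The genes were also compared with each other within each library, as ratios of counts per base, because the scaling of libraries decided the call of *BdPHB-like*. The ratio of *BdAGO10* to *BdPHB-like* was 0.323, 0.365 and 0.340 in libraries 1, 2 and 3 labelled protoplasted, and 0.207, 0.272 and 0.214 in the others. The Argonaute gene was thus higher relative to the class III HD-ZIP gene in every library labelled protoplasted, by 1.49-fold on average. For *BdAPL* to *BdPHB-like* the ratio was 0.215, 0.312 and 0.286 against 0.104, 0.0806 and 0.0792, which is a 3.07-fold difference. The ratio of *BdCRC* to *BdPHB-like* was 0.0852, 0.194 and 0.234 against 0.0175, 0.0299 and 0.0172, or 7.56-fold.

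All 6 pairs of the 4 genes were compared in this way, and the groups did not overlap in any pair. Each two-sided exact permutation test gave p = 0.1, also after Benjamini-Hochberg adjustment over the 6 pairs, which is the smallest value that 3 against 3 libraries allow. Of all other genes tested, 74.2% had a ratio to *BdPHB-like* that did not overlap between the groups, and the same held for 74.2% of the ratios to *BdAGO10*, 84.3% of those to *BdAPL* and 90.4% of those to *BdCRC*, so that separation by itself was common. *BdAGO10* relative to *BdAPL* fell from a mean ratio of 2.69 ± 0.696 in the libraries labelled non-protoplasted to 1.29 ± 0.184 in those labelled protoplasted (SD, n = 3 each). *BdCRC* relative to *BdAPL* stood at 0.252 ± 0.106 and 0.613 ± 0.212 (SD, n = 3 each), with the lowest value labelled protoplasted, 0.396, just above the highest of the others, 0.371.

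**Figure D4:**
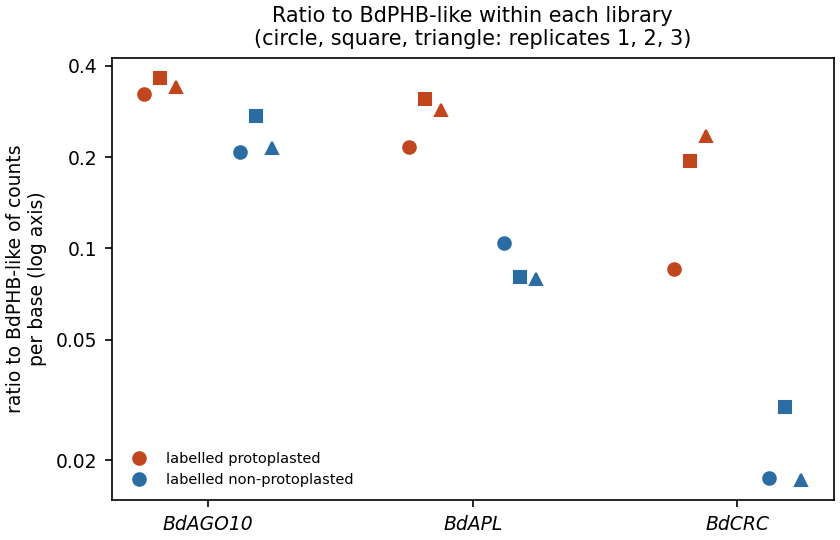
Ratio of counts per base of *BdAGO10*, *BdAPL* and *BdCRC* to *BdPHB-like* (vertical log axis) within each library. Circles, squares and triangles are replicates 1, 2 and 3. For each gene the 3 libraries labelled protoplasted lie above the 3 labelled non-protoplasted, with the widest gap for *BdCRC*.

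Other genes of the shoot apex, the early vasculature and the leaf tissues were described next to the 4 genes. The vascular genes comprised procambium and auxin genes, xylem genes and a pair of transport genes. Of the 10 genes, 9 had enough counts, of which 6 were higher and 2 lower under the label protoplasted, with a median log2 fold change of 1.15. Of all genes tested, 38.7% were higher, 38.3% lower and 77.0% called in either direction, so that 8 called genes of 9 were not far from the overall rate of calls. The 4 genes themselves had a median of 1.13, and all genes tested 0.04. The median over all named genes of the study that were tested was 1.54, so that a value near 1 was no particular feature of vascular genes.

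All 4 procambium and auxin genes were higher, as were 38.7% of all genes tested. *BdPIN1b*, an auxin efflux carrier gene, had 53.4 ± 17.9 and 18.5 ± 2.73 CPM (SD, n = 3 each). Its log2 fold change of 1.52 ± 0.23 (SE) had an edgeR adjusted p of 1.83e-04. *BdTMO6-like*, named after a Dof transcription factor gene of the *A. thaliana* vasculature, had a log2 fold change of 1.15 and *BdPIN1a* one of 0.76. *BdWOX4*, whose rice counterpart is a homeobox gene of the meristem, had at most 14 counts in a library. Its log2 fold change of 1.55 (adjusted p = 0.0106 from edgeR) did not pass with DESeq2 (adjusted p = 0.0774) or without library 3 labelled non-protoplasted (edgeR adjusted p = 0.0633). On the log2(TPM + 1) scale it was 0.39, and without library 2 labelled protoplasted *BdWOX4* had too few counts to be tested.

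The xylem genes went in different directions. *BdXCP1-like*, named after a cysteine peptidase of tracheary elements, had 202 ± 6.91 and 68.3 ± 1.47 CPM (SD, n = 3 each). The log2 fold change was 1.57 ± 0.11 (SE), with an edgeR adjusted p of 1.23e-06. *BdTED4-like*, named after a gene of early tracheary element differentiation, was higher with a log2 fold change of 2.15. *BdVND-like1* and *BdVND-like2* are named after NAC master regulators of vessel formation and were low, with at most 45 counts. *BdVND-like2* was lower, with 0.880 ± 0.202 and 1.65 ± 0.191 CPM (log2 fold change -0.91, adjusted p = 0.0137 from edgeR), and *BdVND-like1* did not pass (log2 fold change 0.56, adjusted p = 0.128 from edgeR). The call of *BdVND-like2* was kept in 12 of 16 alternatives. It was lost with library size only, on both TPM scales and without library 3 labelled non-protoplasted (edgeR adjusted p = 0.0533).

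The transport genes gave a single test. *BdSLAH2*, an anion channel gene, had 17, 8 and 5 counts under the label protoplasted and 600, 797 and 851 under the label non-protoplasted. Its log2 fold change was -6.71 ± 0.29 (SE), with an edgeR adjusted p of 4.95e-08. *BdSWEET13*, named after a maize sugar transporter gene linked to phloem loading, had at most 26 counts, overlapped between the groups and was not tested.

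Among 7 shoot meristem genes, 4 had enough counts, of which 2 were higher under the label protoplasted. Of all genes tested, 38.7% were higher and 77.0% called in either direction, so these calls do not set the list apart. *BdFEA3*, a leucine-rich repeat receptor gene, was higher with a log2 fold change of 2.03 (adjusted p = 1.24e-06 from edgeR), and *BdFEA2*, a receptor-like protein gene, with 1.20 (adjusted p = 0.00208 from edgeR). *BdCLV1* and *BdFEA4* did not pass. *BdKN1* and *BdKNAT1-like*, the KNOX homeobox genes that mark the meristem, had 0 counts in all 6 libraries, which allows up to 3 counts or 0.106 to 0.205 CPM and covers counting error only. *BdFCP1*, a CLE peptide gene, had at most 9 counts. *BdKN1*, *BdKNAT1-like* and *BdFCP1* were thus near or at 0 in the leaf zone, but the list as a whole was not. Under the labels protoplasted and non-protoplasted, *BdFEA3* had means of 134 and 32.9 CPM, and *BdFEA2* of 30.1 and 13.1 CPM.

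**Figure D5:**
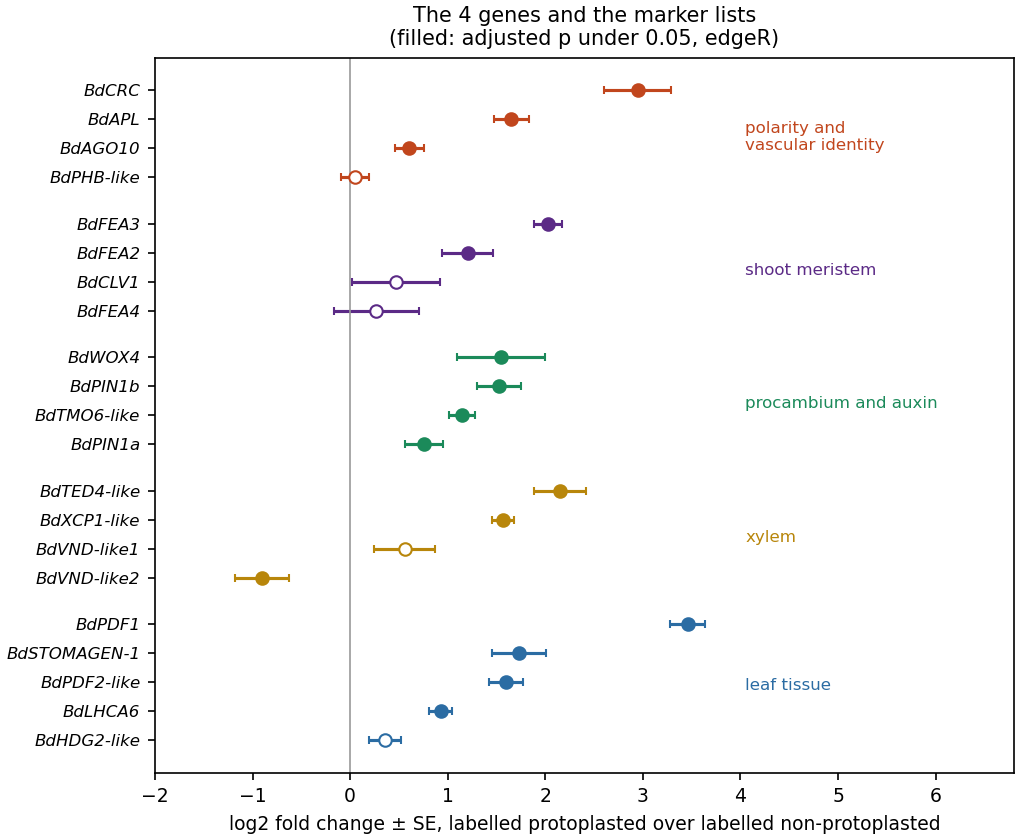
Log2 fold change ± SE of the genes with enough counts (horizontal axis), by gene and list (vertical axis), from 3 libraries labelled protoplasted and 3 labelled non-protoplasted. Filled points had an adjusted p under 0.05 in edgeR, *BdSLAH2* at -6.71 is not drawn, and *BdPHB-like* is the only open point among the 4 polarity and vascular identity genes.

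Markers of the leaf tissues were present in all libraries. Of the 5 markers, 4 were higher under the label protoplasted, beside 38.7% of all genes tested. The 3 epidermis markers summed to 231 to 327 CPM in the libraries labelled protoplasted and to 52.4 to 66.8 CPM in the others, and 2 of the 3 were higher. *BdPDF1* alone stood at 157 to 228 CPM in the libraries labelled protoplasted. *BdHDG2-like* overlapped between the groups and did not pass (log2 fold change 0.36, adjusted p = 0.07 from edgeR). The 2 mesophyll markers, *BdLHCA6* and *BdSTOMAGEN-1*, summed to 69.4 to 81.6 against 34.4 to 36.6 CPM, and both were higher. None of these 5 markers was at 0 in any library. Their part in the differences of *BdCRC*, *BdAPL* and *BdAGO10* was not tested.

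Finally, the 68 other named genes with enough counts were ranked by how much their profile resembled that of each gene, as the root mean square difference of log2 CPM centred on each gene's mean over 6 libraries. *BdXCP1-like* was nearest to *BdAPL* with a difference of 0.10, and 13 genes of the whole table were nearer. *BdSLP1-like4* followed with 0.14 and *BdMYB60-like* with 0.22. *BdPIN1a* was nearest to *BdAGO10* with 0.14 (373 genes of the table nearer), before *BdGRAS32* with 0.18 and *BdHDG2-like* with 0.20. For *BdPHB-like* these were *BdTSO1-like* with 0.15 (550 genes nearer), *BdMYB88-like* with 0.15 and *BdSCRM2* with 0.20. *BdCRC* lay farther from its nearest named genes, with *BdSPCH2* at 0.30 (94 genes nearer), *BdTMM* at 0.38 and *BdTCP4-like* at 0.40. *BdSPCH2* had at most 3 counts and *BdTMM* at most 5 in the libraries labelled non-protoplasted. The 2 counts added before taking logarithms are of the same size as these counts and enter their distances to *BdCRC*. Their fitted log2 fold changes were 3.69 and 3.79 against 2.95 for *BdCRC*. Among the 4 genes, *BdAGO10* and *BdPHB-like* were nearest to each other with 0.32, and *BdCRC* and *BdPHB-like* were farthest apart with 1.47. These distances come from the same 6 libraries in both groups and describe the size of the group difference together with the spread of the replicates.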

How the data were processed

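After a quality check with FastQC, the authors aligned the reads to the Bd21-3 genome using bowtie2, which does not split a read across introns, and obtained raw counts per gene with summarizeOverlaps. The deposited table holds these counts, a deposited signal (reads per kilobase of gene length, not used further) and TPM with the authors' group means. Columns of other samples were not found (0). The counting mode and the use of strand are not given in the sources used here, and the library kit keeps strand, so that overlapping or similar genes could have exchanged or lost reads.

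The test was run with edgeR 4.0.16 under R 4.3.3 (filterByExpr with a minimum count of 10, TMM, glmQLFit and glmQLFTest, prior count 0.125, Benjamini-Hochberg adjustment, threshold 0.05). DESeq2, the tool of the study, was run as an alternative. Standard errors were approximated from the size of the log2 fold change over the root of F, and intervals use the moderated degrees of freedom. TMM factors ran from 0.840 to 1.15. CPM of genes outside the test use the same library sizes. For profiles, 2 counts were added before taking logarithms. The test was also run on simulated counts in which few genes differed, balanced between the directions. That run could not probe the library scaling that decided the call of *BdPHB-like*. Alternatives were RLE and library size only, stricter and no filters, DESeq2 1.42.0, limma-voom, limma-trend with TPM pseudocounts of 1 and 0.1 (limma 3.58.1), a prior count of 2, a replicate block and each library left out.

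Named genes were the 4 genes, those of the marker lists and, for each of the 4, the 3 named genes of the study with the most similar profile. *BdMPK3-like* was named for the labels only, and *BdSLP1-like1* after its values were seen. For the labels, *BdSDD1*, *BdGELP1*, *BdTMM*, *BdPME53-like* and *DUF567* were also named after their values were seen. The genes and lists were chosen with earlier results of these data known. The RefSeq table of Brachypodium_distachyon_v3.0 matched 0 of the 36647 IDs and 0 of the 74 further IDs of named genes, so that sequences and coordinates were not used here. The IDs come from a list that also serves single-cell data mapped to another version of the genome, and the versions were not compared.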

Additional observations from a re-analysis of the deposited data

How the results depend on the processing

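Over 16 results and their alternatives, 244 values were computed, of which 236 kept direction and call or stayed within 1.5 times the count. *BdCRC*, *BdAPL* and *BdAGO10* passed the test in each of their 16 alternatives, with log2 fold changes of 1.93 to 3.32, 1.55 to 2.03 and 0.50 to 0.99. *BdPHB-like* reversed to -0.0165 with RLE size factors and to -0.0165 with DESeq2, and passed with library size only at 0.43. Leaving out each library in turn gave -0.10 to 0.16 for *BdPHB-like*, reversing without library 1 labelled protoplasted. The count of lower xylem genes went from 1 to 0 with library size only and on both TPM scales, as *BdVND-like2* no longer passed. Leaving out each library gave 0 to 1. The cause was not tested. In these 3 settings *BdVND-like2* had an adjusted p of 0.115 (edgeR), 0.0534 and 0.0637 (limma). A threshold of 3 on the linear in place of the log2 fold change, added after seeing the data, gave 2 in place of 0 of the 4 genes (edgeR, and 0 with DESeq2 on the log2 scale).

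Library size only raised the share of calls that were higher in the libraries labelled protoplasted from 50.2% to 61.2%, and log2(TPM + 1) to 58.6%. With the replicate number as a block, the log2 fold changes were 2.96 for *BdCRC*, 1.65 for *BdAPL*, 0.61 for *BdAGO10* and 0.04 for *BdPHB-like*, with no call changed. Deviations of libraries with the same number correlated at 0.115, 0.0300 and 0.0875, and library 2 labelled protoplasted correlated best with number 3 (0.0317), while no pairing is stated. A prior count of 2 gives no separate value for counts of calls. Depth limits *BdCRC* in the libraries labelled non-protoplasted, with 11 to 28 counts. Genome position, strand and the effect of introns on the lengths were not analysed here.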
